A study of Oryza sativa with 16 samples.

Results

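The broad shared regions described here are stretches of the rice genome of at least 3000 bp in which open chromatin was called in unstressed seedlings and after every stress treatment. They were found by merging the overlapping or touching FAIRE-seq peaks of 7 peak lists into union regions and keeping those that were at least 3000 bp wide and were overlapped by at least 1 bp by a peak of each list. This left 3233 regions out of 119009 union regions, or 4.73% of the 68348 union regions that had a peak in every list (shared regions, in what follows). Together they spanned 11.7 Mb, which was 9.85% of all bases in union regions. The width of the union and the presence of a peak in every list chose these regions, so both are given as a description and carry no test.

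Seedlings of the Japonica cultivar Nipponbare were grown at 28 °C for 14 days, and 2 replicates were taken per condition. The control stayed at 28 °C. Cold was 4 °C for 12 h or 24 h, heat was 42 °C for 30 min or 3 h, and salt was 250 mM NaCl for 2 h or 6 h. Both replicates of a condition share 1 deposited peak list, so no value below has a replicate error, no p-value was computed, and every difference between conditions is a difference between single lists. The lists hold no read counts, so the depth behind each peak is unknown, and they held between 87437 (salt 6 h) and 110010 (cold 12 h) peaks.

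In FAIRE-seq, formaldehyde fixes DNA to nucleosomes, and the DNA left in the aqueous phase after phenol extraction comes mainly from stretches with few nucleosomes, such as active promoters and enhancers. An open promoter or enhancer in plants is usually much narrower than the regions described here. In its broad mode, MACS2 joins neighbouring enriched stretches into a single peak, so a broad region can be a continuous open stretch or a row of narrower open sites that lie close together. Heat, cold and salt each set off wide transcriptional programmes in plants. No sequence or gene annotation of the genome build of the lists was used here, so the regions are named by position only.

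The regions were mostly broad as a union and much less often as a single peak. Of the 3233 regions, 2530 contained a peak of at least 3000 bp in at least 1 list, whereas 703 reached this width only through peaks of different lists that overlapped each other. Only 175 regions (5.41%) had a peak of at least 3000 bp in all 7 lists, and 982 had one in exactly 1 list. Within the regions, such wide peaks were present in 1006 regions of the control list, 1382 of cold 12 h, 965 of cold 24 h, 1533 of heat 30 min, 400 of heat 3 h, 1034 of salt 2 h and 631 of salt 6 h. The label of very broad regions open in every condition thus describes the union: a base-by-base core covered in all 7 lists reached 3000 bp in 252 regions (7.79%). In 9 regions no base was covered in all 7 lists, although each list had a peak there.

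**Figure D1:**
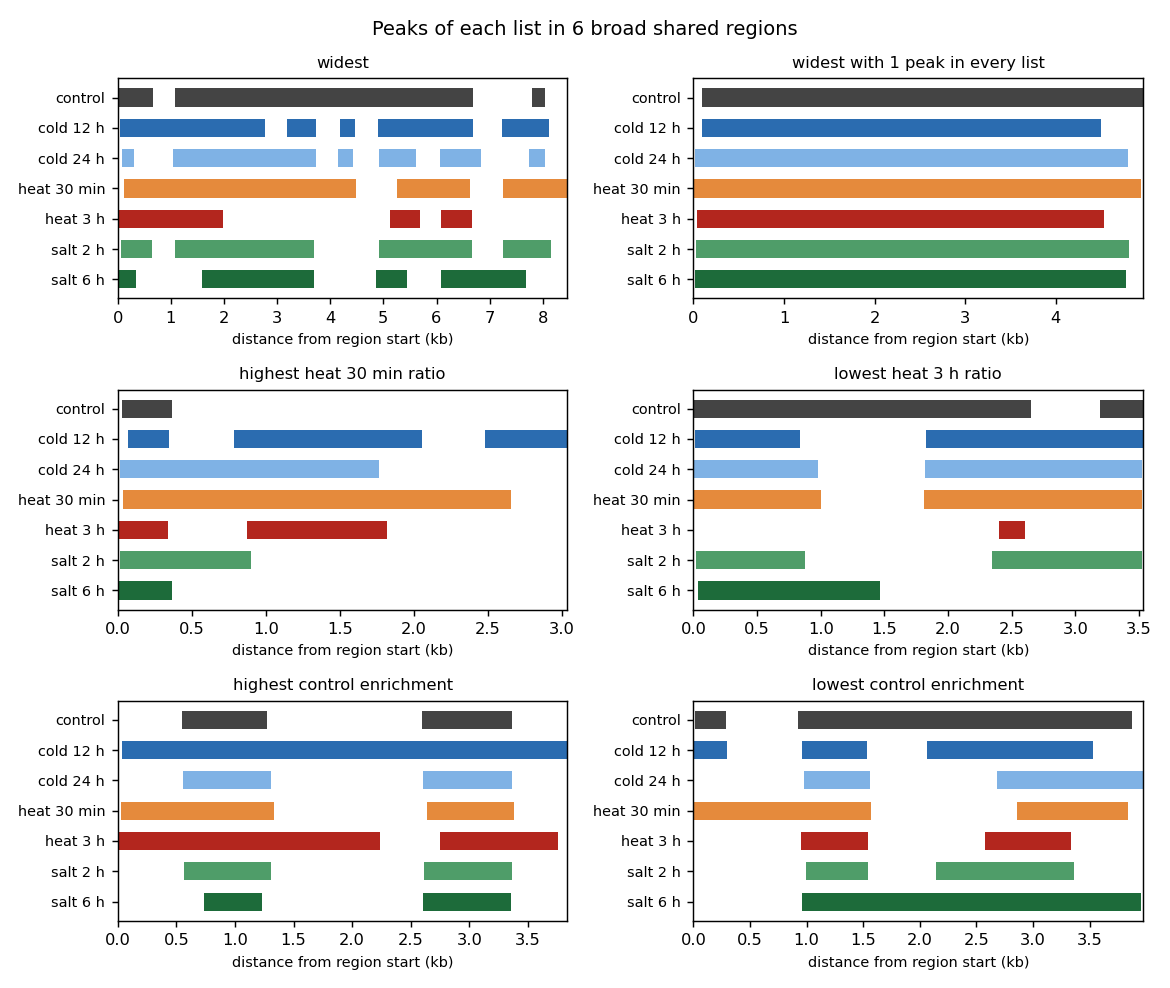
Peaks of the 7 lists (rows) in 6 broad shared regions, drawn to scale with the distance from the start of the region in kb on the x axis of each panel. The widest region, of 8463 bp, is split into 3 to 6 peaks per list, while the widest region with 1 peak in every list, of 4965 bp, is covered almost from end to end in all 7 lists. The 4 other panels show the regions with the highest heat 30 min to control ratio, the lowest heat 3 h to control ratio, and the highest and lowest control fold enrichment.

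Width among the regions had a median of 3432 bp, with quartiles of 3196 and 3856 bp, against a median of 1140 bp over all shared regions. Many lay close to the limit, since 837 regions were at most 3200 bp wide. Just inside the limit, 7 regions had exactly 3000 bp, for example chr1:37975351-37978350, chr2:13776207-13779206 and chr2:26010171-26013170 (coordinates of IRGSP 1.0, counted from 1). Just outside it, 4 shared regions had 2999 bp, among them chr2:22564591-22567589, chr5:15943942-15946940 and chr10:1116634-1119632. The region chr1:37975351-37978350 was 1 peak in every list and was covered over 2229 bp at heat 3 h and over 2705 to 2991 bp in the other 6 lists. In chr5:15943942-15946940, likewise 1 peak in every list but 1 bp too narrow, 852 bp were covered at heat 3 h and 2405 to 2988 bp in the other lists.

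The widest region, chr4:26861449-26869911, was also the one with the most peaks in a single list. Its 8463 bp were covered over 6481 bp in the control (3 peaks), 6220 bp at cold 12 h (5 peaks), 4966 bp at cold 24 h (6 peaks), 6976 bp at heat 30 min (3 peaks), 3104 bp at heat 3 h (3 peaks), 5877 bp at salt 2 h (4 peaks) and 4612 bp at salt 6 h (4 peaks). The core covered in all 7 lists was 1320 bp there, or 15.6% of the region. The heat 3 h list thus had the fewest covered bases and the heat 30 min list the most. This order was seen at these 2 time points in the next widest regions too. In chr4:17151253-17157988 (6736 bp) the peaks covered 6017 bp at heat 30 min and 3617 bp at heat 3 h, with 5049 to 5648 bp in the other 5 lists. In chr3:20356384-20363035 (6652 bp) heat 30 min was a single peak of 6227 bp, and heat 3 h had 4 peaks over 3330 bp, with 4476 to 5651 bp in the other lists.

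Other wide regions broke this order. In chr4:28205499-28212097 (6599 bp) the heat 3 h list had the most covered bases of all, 5838 bp, while the control had the fewest, 3899 bp in 1 peak. In chr11:8938717-8945188 (6472 bp) the salt 6 h list had the fewest, 1636 bp, against 3378 bp in the control, 3457 bp at salt 2 h, 4338 bp at cold 24 h, 4504 bp at heat 3 h, 5856 bp at cold 12 h and 5951 bp at heat 30 min. In chr9:21072388-21078697 (6310 bp) salt 2 h was 1 peak of 5793 bp and no other list had more than 4568 bp. The other 4 of the 10 widest regions, chr5:12913656-12920127, chr5:11029176-11035605, chr10:7219140-7225559 and chr6:26421950-26428347, were between 6398 and 6472 bp wide, with cores between 26.3% and 32.0% of their width. No region of at least 5000 bp was a single peak in every list.

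A group of 494 regions (15.3%) was 1 peak in each of the 7 lists. Of these, 137 also had a core of at least 3000 bp. The 175 regions with a peak of at least 3000 bp in every list, which that rule makes alike across lists, had a median core of 91.8%. Among shared regions of 2000 to 2999 bp, the next narrower set, 40.9% were 1 peak in every list. The 494 regions had a median width of 3275 bp and a median core of 79.6% of their width, against 47.6% in the 2739 other regions. The widest of them were chr2:20017002-20021966 (4965 bp), chr12:12546313-12551259 (4947 bp) and chr10:1311524-1316270 (4747 bp). In chr2:20017002-20021966 the single peak spanned 4865 bp in the control, 4400 bp at cold 12 h, 4781 bp at cold 24 h, 4943 bp at heat 30 min, 4500 bp at heat 3 h, 4777 bp at salt 2 h and 4761 bp at salt 6 h. Here no list stood far from the others, and the lowest value was that of cold 12 h. In chr12:12546313-12551259 it spanned 4187 bp at heat 3 h and 4857 to 4946 bp in the other 6 lists. In chr10:1311524-1316270 it spanned 4058 bp at heat 3 h and 4401 to 4710 bp elsewhere.

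At the other end, 268 regions (8.29%) were a single peak in no list. Their median width was 3842 bp and their median core 38.5% of it. Between these groups, the mean number of peaks per region was lowest at heat 30 min, with 1.496, and highest at heat 3 h, with 1.78, and lay between 1.56 and 1.65 in the other 5 lists. A single peak made up 1875 regions at heat 30 min and 1243 at heat 3 h.

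Of the 7 lists, heat 30 min and heat 3 h were also the extremes in the share of a region covered by peaks. Its median was 81.1% in the control (quartiles 67.7% and 92.8%), 86.1% at cold 12 h, 81.7% at cold 24 h, 88.3% at heat 30 min, 66.0% at heat 3 h (quartiles 51.8% and 79.1%), 81.6% at salt 2 h and 70.6% at salt 6 h (quartiles 52.7% and 84.9%). The control, cold 24 h and salt 2 h lists thus lay close together, between 81.1% and 81.7%. In covered bases, the median region had 2853 bp in the control, 3090 bp at heat 30 min and 2336 bp at heat 3 h. In every list the median share was below that of all other shared regions, which ran from 78.0% at heat 3 h to 93.1% at heat 30 min, and the quartile ranges overlapped in every list. The shared regions of 2000 to 2999 bp had medians close to those of the broad regions in the control (81.4%), at salt 2 h (80.9%) and at salt 6 h (70.4%), and higher ones at cold 12 h (94.3%) and heat 30 min (95.4%).

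**Figure D2:**
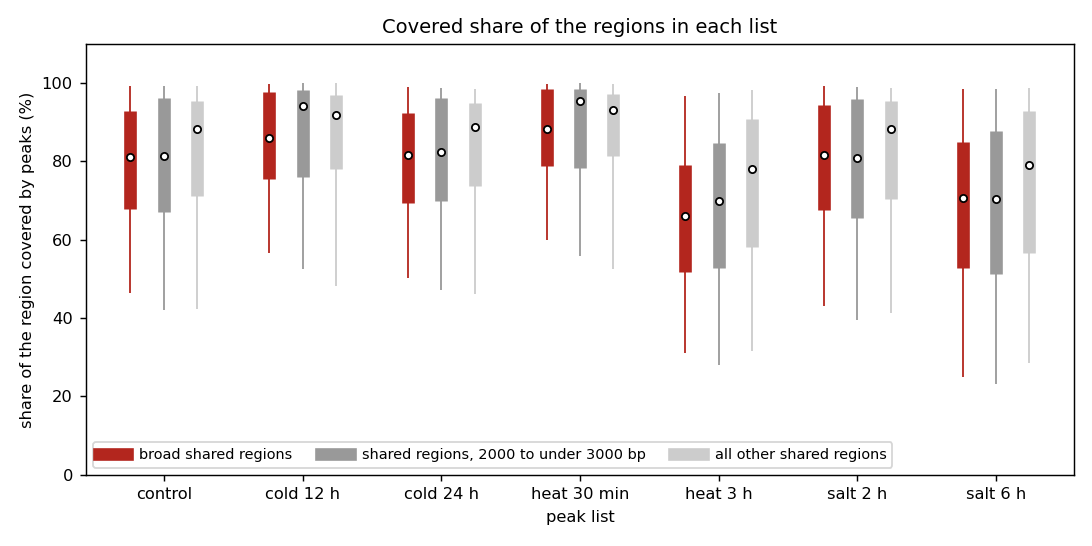
Share of each region covered by peaks (y axis, %) in the 7 lists (x axis), for the 3233 broad shared regions (red), the 9275 shared regions of 2000 to 2999 bp (dark grey) and all 65115 other shared regions, the dark grey ones included (light grey). Circles are medians, thick bars run between the quartiles and thin bars from the 5th to the 95th percentile. The red medians are lowest at heat 3 h (66.0%) and salt 6 h (70.6%) and highest at heat 30 min (88.3%).

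Summed over the regions, 51.0% of the bases were covered in all 7 lists, 12.3% in 6 and 9.13% in a single list. Over all other shared regions, 57.4% of the bases were covered in all 7 lists. The median core was 1840 bp, or 51.6% of the region (quartiles 35.8% and 66.6%), and the highest was 4825 bp. Core share was lower in wider regions. This is partly built in, since a single list that reaches further widens the union and leaves the core as it is. Its median was 53.3% in the 1793 regions of 3000 to 3499 bp, 51.4% in the 800 regions of 3500 to 3999 bp, 48.7% in the 533 regions of 4000 to 4999 bp and 45.3% in the 107 regions of at least 5000 bp. The core itself was longer in wider regions, with medians of 1713, 1912.5, 2116 and 2498 bp in the same order.

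**Figure D3:**
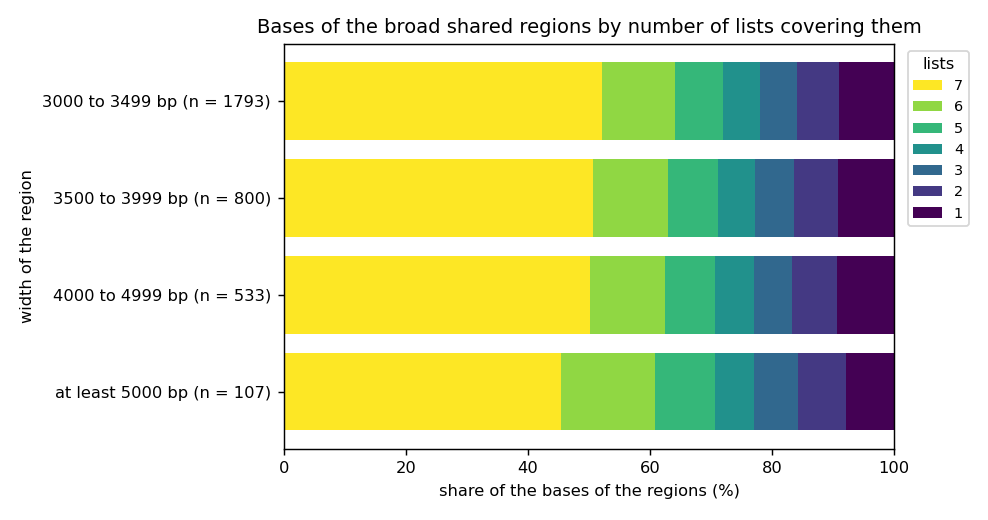
Share of the bases of the broad shared regions (x axis, %) covered in 1 to 7 of the lists (colours), for 4 width classes (rows, with the number of regions). The share covered in all 7 lists (yellow) is 52.1% in the narrowest class and 45.3% in the widest.

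The question of the stress treatments is whether open chromatin is re-modelled, and for these regions it was put as the ratio of covered bases in a stress list to those in the control list. A region was called longer at a ratio of at least 1.2 and shorter at the inverse or less, and the same calls over all 68348 shared regions give the background. All 6 comparisons share the control list. Because peaks of both compared lists also helped to choose the regions, the counts are followed by those over broad regions chosen from the 5 other lists alone, an alternative added after the data had been seen. These are read against all regions with a peak in each of those 5 lists, of any width (the 5-list background), which differ from the shared regions.

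The covered length under heat differed from the control in opposite directions at its 2 time points. At heat 30 min, 967 regions (29.9%) were longer than in the control and 183 (5.66%) shorter, against a background of 22% longer and 7.45% shorter. The median ratio was 1.08 (quartiles 0.993 and 1.24), and the summed covered length was 10.1 Mb against 9.13 Mb in the control. With regions chosen without these 2 lists, 671 of 2643 (25.4%) were longer and 133 (5.03%) shorter, against 18.2% and 6.41% of the 5-list background. At heat 3 h, 254 regions (7.86%) were longer and 1546 (47.8%) shorter, against a background of 9.56% longer and 31.9% shorter. The median ratio was 0.845 (quartiles 0.683 and 0.988), and on the 12 chromosomes the median ran from 0.811 to 0.868. When neither list took part in the choice, 212 of 2985 regions (7.10%) were longer and 1408 (47.2%) shorter at heat 3 h, against 8.23% and 33.9% of the 5-list background.

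Shared regions of 2000 to 2999 bp, with 41.1% shorter at heat 3 h, lay between the broad regions and the background, and at heat 30 min their share of longer regions, 32.1%, was above that of the broad regions. The heat 3 h list held 91083 peaks and the heat 30 min list 108147, against 99518 in the control. With equal numbers of peaks in every list, the 87437 of highest fold enrichment, 1128 of 2553 regions (44.2%) were shorter and 315 (12.3%) longer at heat 3 h, against 29.3% and 8.999% of the 58349 regions shared under that setting. The depth behind each list is unknown, and its part in these differences was not tested.

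Single regions show both directions. In chr10:16825893-16828927 (3035 bp), which had the highest ratio to the control at cold 24 h, heat 30 min and heat 3 h alike, the control had 1 peak of 338 bp and salt 6 h 1 of 357 bp. The same region was covered over 886 bp at salt 2 h, 1285 bp at heat 3 h, 1743 bp at cold 24 h, 2107 bp at cold 12 h and 2615 bp at heat 30 min. The control and salt 6 h thus shared a narrow peak, and the other lists had 2.62 to 7.74 times the covered bases of the control. In chr12:12733319-12736849 (3531 bp), which had the lowest ratio at heat 3 h, heat 3 h had 1 peak of 206 bp, or 0.0692 times the 2978 bp of the control. Salt 6 h covered 1429 bp there and the other 4 stress lists 2040 to 2699 bp, so heat 3 h stood apart, and no base was covered in all 7 lists. The lowest ratio at heat 30 min, 0.202, was in chr4:6028119-6031129 (3011 bp), with 475 bp against 2356 bp in the control. In this region salt 2 h (2359 bp) and salt 6 h (2284 bp) were close to the control, and cold 12 h (549 bp), cold 24 h (868 bp) and heat 3 h (1591 bp) were lower.

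Salt for 6 h was like the longer heat treatment in direction. At salt 6 h, 193 regions (5.97%) were longer and 1306 (40.4%) shorter than in the control, against a background of 6.43% longer and 29.6% shorter, with a median ratio of 0.883. Chosen without these 2 lists, 156 of 3002 regions (5.20%) were longer and 1205 (40.1%) shorter, against 5.46% and 32.4% of the 5-list background. Shared regions of 2000 to 2999 bp had nearly the same share as the broad ones, 40.7%. At salt 2 h, 372 regions (11.5%) were longer and 382 (11.8%) shorter, against 8.98% and 10.1% in the background, and the median ratio was 0.998. Without these lists in the choice, 302 of 2955 (10.2%) were longer and 299 (10.1%) shorter, against 8.35% and 8.54% of the 5-list background. The summed covered length was 9.13 Mb at salt 2 h and in the control and 7.88 Mb at salt 6 h. The salt 6 h list held the fewest peaks, 87437. With that number of peaks in every list, 1019 of 2553 regions (39.9%) were shorter and 219 (8.58%) longer, against 28.8% and 5.42% of all regions shared under that setting.

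The lowest salt 6 h ratio, 0.0993, was in chr6:8056733-8060349 (3617 bp), where 1 peak of 299 bp stood against 1 of 3010 bp in the control. Salt 2 h covered 2567 bp there, heat 3 h 2111 bp, and the other 3 lists 3117 to 3580 bp. The highest, 2.71, was in chr5:28170512-28173710 (3199 bp), with 2784 bp against 1026 bp in the control. That region was longer than in the control in all 6 stress lists, up to 3197 bp at heat 3 h. At salt 2 h, the lowest ratio (0.174) was in chr11:25833309-25836689 (3381 bp), where 267 bp were covered at salt 2 h and 270 bp at salt 6 h, against 1538 bp in the control, 1701 to 2402 bp at cold 24 h, heat 3 h and heat 30 min, and 3332 bp at cold 12 h. Both salt lists were thus below the other 5. The highest (3.11) was in chr3:21243576-21246652 (3077 bp), with 978 bp in the control, 3043 bp at salt 2 h and 2177 bp at salt 6 h, and 1627 to 2605 bp in the cold and heat lists.

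For cold 12 h, the share of longer regions depended on how the regions were chosen. At cold 12 h, 958 regions (29.6%) were longer and 419 (12.96%) shorter than in the control, against a background of 23.7% and 14.3%. When neither list took part in the choice, 423 of 2438 regions (17.4%) were longer and 353 (14.5%) shorter, close to the 15.5% and 14.4% of the 5-list background, and the median ratio was 1.00. At cold 24 h, 466 regions (14.4%) were longer and 350 (10.8%) shorter, against 12.8% and 8.9% in the background. Without these lists in the choice, 420 of 2979 (14.1%) were longer and 269 (9.03%) shorter, against 12.0% and 7.25% of the 5-list background. The highest cold 12 h ratio, 9.06, was in chr8:4488909-4492003 (3095 bp), where cold 12 h was 1 peak of 3036 bp and the control 1 peak of 335 bp. Salt 2 h (288 bp) and salt 6 h (281 bp) were near the control there, and heat 3 h (509 bp), cold 24 h (1018 bp) and heat 30 min (1242 bp) lay between. The lowest, 0.0990, was in chr7:7564464-7567854 (3391 bp), with 269 bp against 2718 bp in the control, 2860 bp at salt 2 h and 2541 bp at salt 6 h.

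The lowest cold 24 h ratio, 0.254, was in chr6:21095272-21098609 (3338 bp). Its peaks covered 1099 bp in the control and 2633 bp at cold 12 h, but only 200 to 372 bp in the other 5 lists, and no base was covered in all 7. The control and cold 12 h lists thus had the most covered bases there, though the rule also needed a peak of each of the other 5 lists. Of the 9 regions without a common base, chr10:7360365-7363612 (3248 bp), picked after its values were seen, had 209 bp at salt 6 h and 246 bp at heat 3 h, against 1811 to 3192 bp in the other lists.

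**Figure D4:**
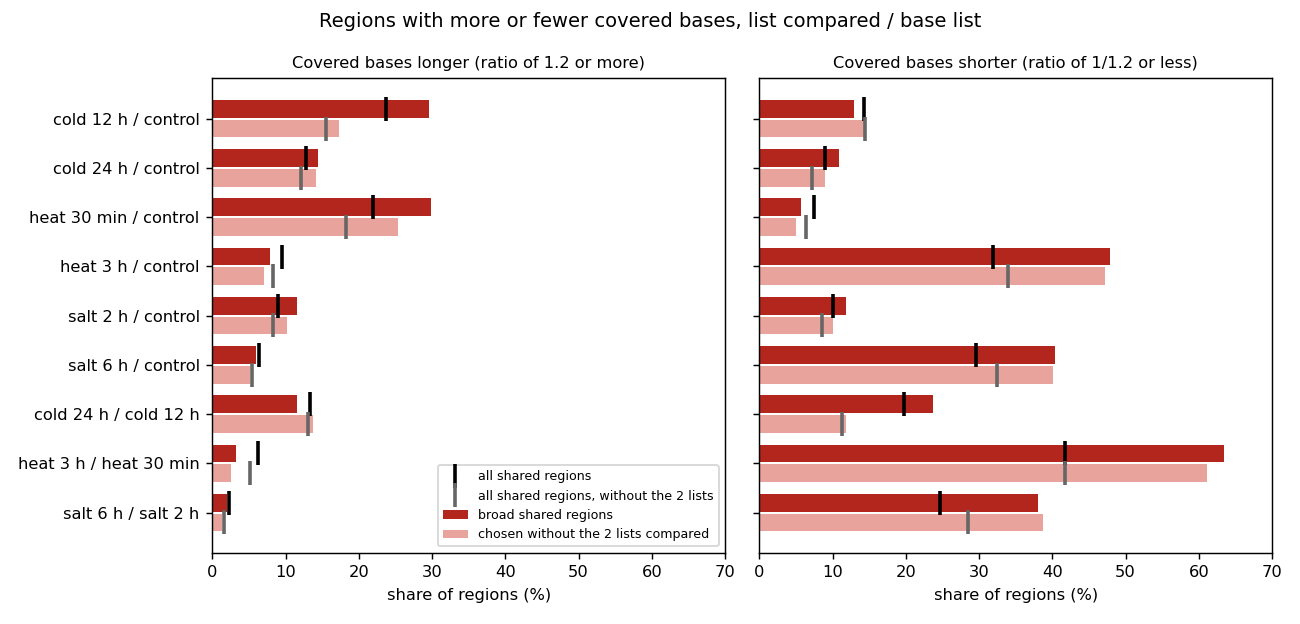
Share of regions (x axis, %) with longer (left) or shorter (right) covered length in the first list than in the second (rows), at a ratio of 1.2. Dark bars are the 3233 broad shared regions and light bars the regions chosen without the 2 lists compared, and the vertical ticks give the same share over all shared regions (black) and over the 5-list background (grey). The shares of shorter regions at heat 3 h and salt 6 h are nearly the same in both bars (47.8% and 47.2%, 40.4% and 40.1%), while the share of longer regions at cold 12 h is 29.6% in the dark and 17.4% in the light bar.

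Between the time points of a stress, heat had the widest gap. At heat 3 h, 2049 regions (63.4%) were shorter than at heat 30 min and 104 (3.22%) longer, against a background of 41.7% and 6.22%, and the median ratio was 0.754. In the 2761 regions chosen without these lists, 61.1% were shorter and 2.50% longer, against 41.7% and 5.08% of the 5-list background, and the median ratios were 0.773 and 0.887. At salt 6 h, 1232 regions (38.1%) were shorter than at salt 2 h and 63 (1.95%) longer, against 24.7% and 2.32%, and in the regions chosen without these lists 1173 of 3033 (38.7%) were shorter and 38 (1.25%) longer, against 28.5% and 1.54% of the 5-list background. For cold, 768 regions (23.8%) were shorter and 372 (11.5%) longer at 24 h than at 12 h, against 19.8% and 13.3%, but without these lists in the choice 298 of 2522 (11.8%) were shorter and 348 (13.8%) longer, close to the 11.3% and 13.1% of the 5-list background. In the next narrower set, shared regions of 2000 to 2999 bp, 56.4% were shorter and 4.57% longer for heat. For salt these shares were 36.5% and 2.75%, and for cold 27.4% and 14.2%. The narrower set was thus between the broad regions and the background for heat. Its share of shorter regions was near that of the broad regions for salt and above it for cold. The heat and salt comparisons share no list. In 958 regions both the later heat and the later salt list were shorter, which was 46.8% of those shorter in heat and 77.8% of those shorter in salt. Over all shared regions these shares were 38.8% and 65.6%. Such shares rise with the number of shorter regions, which was higher among the broad regions in heat (63.4% against 41.7%) and in salt (38.1% against 24.7%). They therefore do not show a closer link between heat and salt in the broad regions.

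The 7 lists were also ranked by covered bases within each region, which needs no base list. All 7 helped to choose the regions, and the width limit favours lists with many wide peaks as the longest. No ranking free of this choice was made. The heat 3 h list had the fewest covered bases in 1554 regions (48.1%) and the salt 6 h list in 959 (29.7%), while over all shared regions these shares were 36.4% and 27.7%. The most covered bases were found at heat 30 min in 1070 regions (33.1%) and at cold 12 h in 900 (27.8%). Over all shared regions these were 25.8% and 26.6%. The list with the most covered bases had a median of 1.61 times those of the list with the fewest, against 1.49 times over all shared regions. In 347 regions (10.7%) this ratio stayed under 1.2, compared with 24.2% of all shared regions, and in 908 (28.1%) it was at least 2, close to the 27.5% of all shared regions.

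At heat 30 min, heat 3 h and salt 6 h, most of the difference from the control in covered bases lay at the edges, the rest in gaps between peaks. Edges are here all bases outside the first and last covered base of a list. The loss of a whole outer peak therefore also counts as edge and is not told apart from a shorter peak. The mean difference from the control at heat 3 h was -486 covered bp per region, with 311 bp more uncovered at the edges and 175 bp more in gaps. At salt 6 h it was -388 covered bp, with 315 bp more uncovered at the edges and 72.6 bp more in gaps. At heat 30 min it was 290 covered bp, with a mean difference of -180 bp in the uncovered edges and of -110 bp in gaps. Heat 3 h had more peaks than the control in 977 regions and fewer in 559, whereas salt 6 h had more in 706 and fewer in 666. These means and counts were computed for the broad regions only, so they cannot be read against all shared regions. The 494 regions that were 1 peak in every list had median ratios of 0.963 at heat 3 h and 0.980 at salt 6 h, and 105 (21.3%) and 82 (16.6%) of them were shorter there. Among the 252 regions with a core of at least 3000 bp, a set that favours regions alike in all lists, the shares were 15.1% and 3.57%.

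Most bases covered under stress were also covered in the control. Of the bases covered at salt 6 h in the regions, 93.9% were also covered in the control, as were 91.2% of those at heat 3 h, 92.5% of those at salt 2 h, 91.1% of those at cold 24 h, 85.3% of those at heat 30 min and 83.2% of those at cold 12 h. Conversely, 75.5% of the control bases were covered at heat 3 h and 94.1% at heat 30 min. These shares were computed for the broad regions only, and they also depend on how many bases each list covers.

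Fold enrichment was lower in the broad regions than in the other shared regions. MACS2 gives each broad peak a fold enrichment averaged over its length, and since the lists were scaled separately, the strongest peak of a region was ranked among all peaks of its own list. The median percentile was 46.4 in the control, 54.2 at cold 12 h, 50.2 at cold 24 h, 45.3 at heat 30 min, 55.3 at heat 3 h, 48.3 at salt 2 h and 47.8 at salt 6 h. All other shared regions had medians between 60.1 and 65.8. In the control, 152 regions (4.70%) ranked in the top 10% of peaks, compared with 14.8% of the other shared regions, and 246 (7.61%) ranked in the lowest 10%, compared with 4.18%. At the low end the lists differed in direction, since at cold 12 h 1.58% of the broad regions and 2.86% of the other shared regions ranked in the lowest 10%, and at heat 3 h 1.73% and 4.81%. Rank was lower in wider regions, from a control median of 52.4 in regions of 3000 to 3499 bp to 44.4, 37.7 and 18.7 in the wider classes. Averaging over a longer peak can itself lower the fold enrichment, and the part of this in the difference was not tested.

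**Figure D5:**
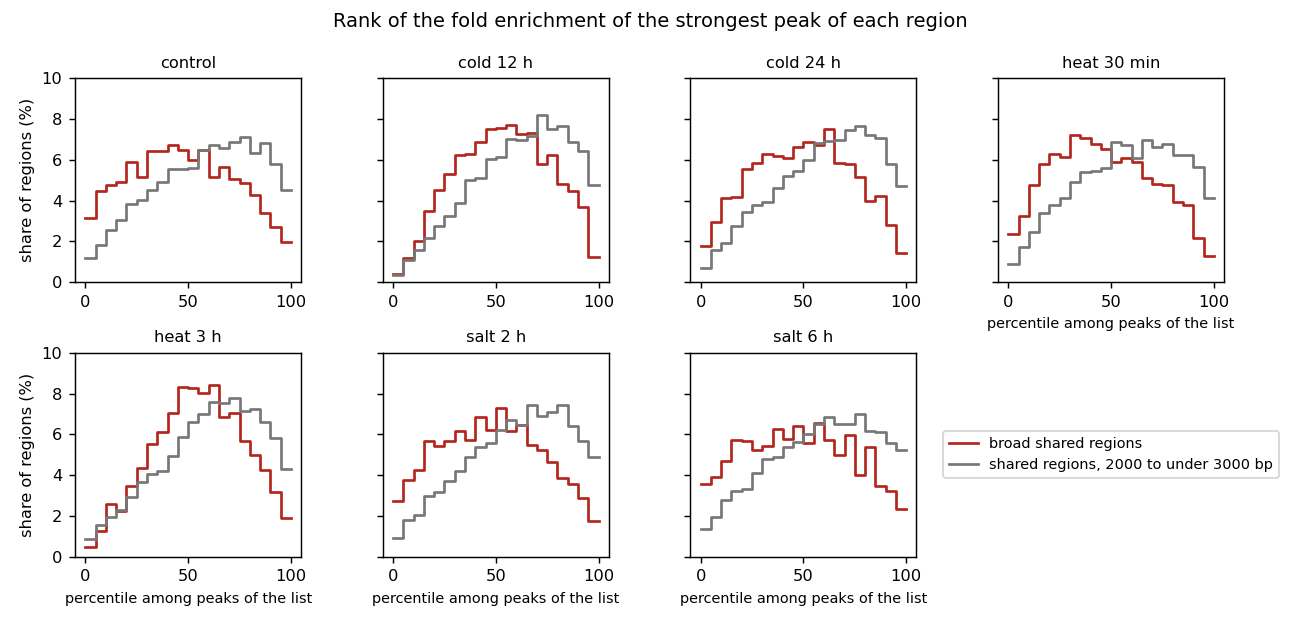
Distribution of the percentile rank of the fold enrichment of the strongest peak of each region among all peaks of the same list (x axis, in steps of 5; y axis, share of regions in %), in each of the 7 lists. Red lines are the broad shared regions and grey lines the shared regions of 2000 to 2999 bp. The red medians, from 45.3 to 55.3, are below the grey ones, from 59.1 to 64.0, in all 7 lists.

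The 3 regions with the highest control fold enrichment were each a pair of peaks in the control and a single long peak in at least 1 stress list. The control covered less than 3000 bp in each of them, so the width limit itself required stress lists to cover the rest. This form is therefore given as a description only. The highest control fold enrichment, 5.37, belonged to chr11:27235988-27239824 (3837 bp), which had 2 peaks over 1492 bp in the control and a similar pair at cold 24 h (1512 bp), salt 2 h (1483 bp) and salt 6 h (1253 bp). At cold 12 h a single peak of 3804 bp, with a fold enrichment of 2.45, spanned the whole region, and heat 3 h covered 3246 bp. The same form was seen in chr7:28522390-28525390 (3001 bp), second in the control with a fold enrichment of 5.03. It had 2 peaks in the control (2145 bp), salt 2 h (1301 bp) and salt 6 h (1146 bp), and 1 peak of 2774 to 2941 bp in each of the cold and heat lists. In chr7:28829065-28832422 (3358 bp), next with 4.75, heat 30 min was 1 peak of 3351 bp and the control 2 peaks over 1955 bp.

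The weakest regions in the control were chr8:12450205-12454176 (3972 bp, fold enrichment 1.44), chr9:21072388-21078697 (1.45) and chr12:27251665-27255695 (4031 bp, 1.48). All 3 ranked below percentile 1 of the control peaks, at 0.22, 0.30 and 0.47. In chr12:27251665-27255695 the covered length was 3397 bp at cold 12 h and 3788 to 4002 bp in the other 6 lists, with a core of 81.5%, so a region can be weakly enriched and yet be covered alike in nearly every list. In chr8:12450205-12454176, by contrast, it ran from 1348 bp at heat 3 h to 3213 bp in the control.

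The regions were found on all 12 chromosomes and in each of the 367 full bins of 1 Mb. Their number ran from 180 on chromosome 10 to 436 on chromosome 1. Measured up to the last peak of each chromosome, the density was lowest on chromosome 11 (6.34 per Mb) and chromosome 12 (6.68) and highest on chromosome 3 (10.5) and chromosome 1 (10.1). As a share of the shared regions of the chromosome, they made up 4.02% on chromosome 11 and 5.56% on chromosome 4, with the other 10 chromosomes in between. Median width differed little, from 3397 bp on chromosome 4 to 3472 bp on chromosome 5.

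Along the chromosomes, a bin held a median of 8 regions (quartiles 6 and 11). The fewest, 1, was between 28 and 29 Mb of chromosome 11, among 116 shared regions, and the most, 24, between 27 and 28 Mb of chromosome 2, among 210. The number of broad regions per bin had a Pearson r of 0.368 with the number of shared regions over the 367 bins, which is a description of bins that share the same libraries. Bins with fewer shared regions held fewer broad ones, at a similar share of the shared regions: in the 96 bins with the fewest (up to 160), 643 regions made up 5.01% of the shared regions, and in the 95 with the most (210 or more), 998 made up 4.75%. The share was highest between 19 and 20 Mb of chromosome 3 (21 of 157, 13.4%), 13 and 14 Mb of chromosome 8 (19 of 143, 13.3%) and 12 and 13 Mb of chromosome 5 (16 of 130, 12.3%), all of them bins below the median of 191 shared regions. Regions in the sparse and in the dense bins were alike at heat 3 h, with median ratios of 0.832 and 0.854. Within 1 Mb of a chromosome end there were 176 regions, or 4.00% of the shared regions there.

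Neighbouring broad regions lay a median of 66.6 kb apart (quartiles 27.0 and 146 kb), with extremes of 82 bp and 1105 kb, and 301 of the 3221 gaps (9.34%) were at most 10 kb. The distance to the next union region of any width had a median of 1030 bp, against 769 bp for the other shared regions. The densest run, in a window of 100 kb, was 7 regions between 12291106 and 12383196 of chromosome 7, and of all windows 2 held as many. The 7 regions were 3017 to 3683 bp wide and together spanned 23.4 kb of the 92.1 kb run. Their covered length was 2529 to 3314 bp in the control, 2429 to 3601 bp at cold 12 h and 1936 to 2892 bp at heat 3 h. Of the 7, 5 had fewer covered bases at heat 3 h than in the control. Over all broad regions 78.4% had fewer, so the run did not stand out in this. A region of this run picked after its values were seen, chr7:12298567-12301838, was 1 peak in every list, and its 2529 bp in the control were the lowest of the 7 lists.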

How the data were processed

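FAIRE-seq libraries of 2 replicates per condition were summarised by the authors as 1 peak list per condition. Per the study's methods, reads were aligned with Bowtie2 to IRGSP 1.0, reads at organelle insertion sites, duplicates and reads with a mapping score under 10 were removed, peaks were called with MACS2 in broad mode, and peaks under 1 RPM in any replicate were dropped. Tool versions are not given in the sources used here, nor is whether replicates were pooled before calling. The deposited lists give peak positions, a whole-number score (not used), the fold enrichment over the local background as a ratio, and the -log10 p (not used) and -log10 q as MACS2 computed them for the authors, each averaged over the peak.

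Peaks were merged into union regions, and covered bases, peak numbers and percentile ranks of fold enrichment were computed per list with Python 3.11.15, numpy 2.4.6 and scipy 1.17.1, and figures with matplotlib 3.10.9. The steps were tested on 2000 simulated regions, where 12 of 12 quantities were recovered. Each list is the only value of its condition, so no test was run. Depth per list is unknown, and no interval for a value was computed from it. A region is longer or shorter at a ratio of 1.2 in covered bases. For equal numbers of peaks, each list was limited to its 87437 most enriched peaks. The regions, sets and comparisons were chosen with earlier results of these data known. Named regions are the 10 widest, the highest and lowest ratio to the control per stress list, the 3 highest and 3 lowest in control fold enrichment, the one with most peaks in a list, the 3 widest with 1 peak in every list, the densest run, and 3 on each side of the width limit. RNA-seq samples and gene annotation were not used here.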

Additional observations from a re-analysis of the deposited data

Results flagged for a closer look

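The 2 time points of heat lay on opposite sides of the control. The summed covered length of the broad shared regions was 1.10 times that of the control at heat 30 min (1.1027 before rounding) and 0.828 times at heat 3 h. Over all shared regions the same ratios were 1.09 and 0.878, so both lay on the same sides of the control there. Each time point is 1 peak list, so the difference was not tested.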

How the results depend on the processing

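A recomputed count was taken as moved beyond 1.5 times the reported one, and a median share or rank as moved outside the 95% binomial interval of the median over the regions, which are not replicates and make this interval narrow. By these limits 74 values stayed and 66 moved. All 26 results recomputed with a -log10 q minimum of 2 were among those that stayed. Other limits of the choice gave 6506 regions (at least 2500 bp), 640 (at least 4000 bp) and 2121 (each list covering at least 50%), and leaving out 1 list at a time gave 2609 to 3176. The median covered share with equal numbers of peaks was 80.0% in the control, 87.2% at cold 12 h, 80.6% at cold 24 h and 79.7% at salt 2 h, and in regions of at least 4000 bp it was 79.1%, 84.4% and 79.9% in the control, cold 12 h and cold 24 h and 62.9% at heat 3 h.

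A ratio of 1.5 by construction gave fewer calls. The longer and shorter regions were then 373 and 102 at cold 12 h, 107 and 64 at cold 24 h, 303 and 31 at heat 30 min, 83 and 733 at heat 3 h, 62 and 80 at salt 2 h, and 41 and 620 at salt 6 h. Between time points they were 93 and 279 for cold, 26 and 1095 for heat, and 6 and 505 for salt. The length from the first to the last covered base also counts the gaps between peaks. By this measure the longer and shorter regions were 499 and 180 at cold 12 h, 242 and 152 at cold 24 h, and 477 and 78 at heat 30 min. They were 158 and 201 at salt 2 h and 92 and 784 at salt 6 h, with 860 shorter at heat 3 h. Between time points they were 170 and 379 for cold and 34 and 688 for salt, with 1167 shorter for heat. No share over all shared regions is given for either setting, so these counts cannot be read against a background.

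With equal numbers of peaks, 197 regions (7.72%) were longer at heat 3 h than at heat 30 min, against 5.69% of all regions shared under that setting. For salt 6 h against salt 2 h they were 117 (4.58%), against 2.20%. Both shares were above the background here, but below it in the main counts (3.22% against 6.22% for heat, 1.95% against 2.32% for salt). With regions chosen without the compared lists, an alternative chosen after seeing the data, 423 were longer at cold 12 h than in the control, 298 shorter at cold 24 h than at cold 12 h, 69 longer at heat 3 h than at heat 30 min and 38 longer at salt 6 h than at salt 2 h. Median ranks by -log10 q were 57.4 in the control, 62.9 and 60.6 at cold 12 h and 24 h, 55.7 and 62.1 at heat 30 min and 3 h, and 58.1 and 57.5 at salt 2 h and 6 h. By the mean fold enrichment over covered bases they were 40.6, 48.4, 43.9, 40.8, 48.2, 42.7 and 41.9 in the same order. Within 2 Mb of an end there were 371 regions. Apart from the settings that change the number of calls or regions by construction, the cause was not tested.

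No paired analysis was possible because each condition has 1 peak list for both replicates, and for the same reason no replicate was left out. Without replicate values, differences between lists cannot be set against replicate error.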

Other observations

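A further 42 union regions of at least 3000 bp lacked a peak in 1 or 2 of the 7 lists and so were not counted among the broad shared regions. The salt 6 h list had no peak in 29 of them, 26 of which had a peak in every other list. The heat 3 h list had none in 10, all of which had a peak in every other list. Cold 12 h lacked 3, salt 2 h 2, the control and heat 30 min 1 each, and cold 24 h 0. Salt 6 h and heat 3 h also held the fewest peaks of all lists, 87437 and 91083. The share of union regions of any width missing from each list is not given, so whether these counts are particular to wide regions was not tested. The widest of the 42, chr2:35915363-35919504 (4142 bp), had no peak at heat 3 h. It was covered over 3583 bp in the control, 1129 bp at cold 12 h, 2587 bp at cold 24 h, 2653 bp at heat 30 min, 3529 bp at salt 2 h and 2232 bp at salt 6 h. It was picked after its values were seen.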
